A study of Monascus purpureus with 6 samples.

Results

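Core histones are the proteins around which DNA is wound in the nucleosome, and their RNA was followed here in the fungus *Monascus purpureus* MP2022 grown with and without taurine. A unigene, which is a transcript assembled from the reads without a genome, was counted as a core histone where its KEGG description names histone H2A, H2B, H3 or H4 and its Pfam description contains the word histone. Methyltransferases, acetyltransferases, demethylases, deacetylases and chaperones were left out, and a mean of at least 0.1 FPKM over the libraries was required. FPKM is the number of fragments per kilobase of unigene per 1000000 fragments. The rule took 10 unigenes, from 9 assembled genes, of 20581 unigenes with FPKM listed. No unigene that met the wording was lost to the minimum, and all 10 were among the 20381 unigenes tested.

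The taurine group (3 libraries) was the wild-type strain in fermentation medium with taurine, a sulfur-containing amino acid, for which the study's methods give 4.0 g/L, sampled at day 1. The control group (3 libraries) was the same strain in the same medium at day 1 without taurine. De novo RNA-Seq served the study's question of which transcripts change when taurine is added. The labels do not say that the 3 libraries of a group came from separate cultures, so the p-values measure only the spread between these libraries.

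In a nucleosome, H3 and H4 form the central tetramer and H2A with H2B forms the dimers that complete it. Canonical histone genes are transcribed most strongly during DNA replication, when new DNA has to be packed, and in many fungi the genes of a pair lie side by side and are transcribed away from each other. Variants replace canonical histones at given places: H2A.Z sits in nucleosomes near gene starts, and CENP-A, called Cse4 in yeast, takes the place of H3 at the centromere, where the kinetochore is built.

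The labels of the 10 unigenes were compared with their other annotation. H2A (2 unigenes), H2A.Z (1), H2B (2), H3 (1), CENP-A (1) and H4 (3) were each present. Pfam gave a core histone domain for 5 of the 10 and the H2A C-terminus for 2. For the 3 H4 unigenes it gave only the histone fold of the kinetochore protein CENP-T, although KEGG names all 3 as H4. The H2B unigene DN1062_c0_g1_i4 is described by KEGG both as H2B and as the autophagy protease ATG4, so its FPKM may also hold fragments of a second gene. In the RefSeq gene table of *M. purpureus* KUPM5 (assembly ASM2599979v1) the genes ATG4 and HTA1 have 1 gene between them. HTA1 is a name for H2A, not H2B, and 0 of the core histone unigenes matched that gene table by identifier. Whether DN1062_c0_g1 comes from this place was not tested.

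The number of fragments, roughly estimated from the steps between low values, was similar across libraries. It was 18800000 to 19400000 in the taurine libraries and 18400000 to 19200000 in the control libraries. FPKM summed to 831359 to 865009 in the taurine libraries and to 797244 to 863693 in the control libraries, and control replicate 2 had the lowest sum. Because FPKM is already scaled by fragments, its sum does not measure library size. Across all tested unigenes limma called 8 at an adjusted p of 0.05, which is 0.0393%. Limma voom on estimated fragments called 0 of 16431. Of the 8, 5 were higher with taurine (0.0245%) and 3 lower (0.0147%).

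Core histone RNA was abundant in both groups and differed little between them. Summed over the 10 unigenes, FPKM was 9700, 11059 and 10025 in the taurine libraries, against 10412, 8440 and 10798 in the control libraries. The groups overlapped, and the lowest library was control replicate 2. The sum averaged 10262 ± 710 FPKM in taurine libraries and 9883 ± 1265 FPKM in control libraries (SD, n = 3 each), and it was 1.06% to 1.28% of all FPKM. The mean log2 of the sum was 0.06 higher with taurine, and without control replicate 2 the difference was -0.05. In RNA from whole mycelium, fewer cells of a type and less RNA per cell cannot be told apart.

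None of the 10 unigenes passed an adjusted p of 0.05 (limma on log2(FPKM + 1), Benjamini-Hochberg over 20381 unigenes), against the 0.0393% above. None had an unadjusted p under 0.05 either, against 2.66% of all tested unigenes (1.63% higher and 1.03% lower with taurine), and limma voom on estimated fragments also called 0 of the 10. Log2 fold changes, taurine minus control, were above 0 in 7 unigenes and below 0 in 3, where 54.2% of all tested unigenes were above 0. Their median was 0.04, beside 0.02 over all tested unigenes. Without control replicate 2 only 1 of the 10 stayed above 0 and the median was -0.05. Of the 20062 unigenes that passed the minimum without that library, 55.9% were then above 0, with a median of 0.03. The groups overlapped in all 10 unigenes, while they did not overlap in 6.41% of all tested unigenes (3.78% higher and 2.62% lower with taurine).

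**Figure D1:**
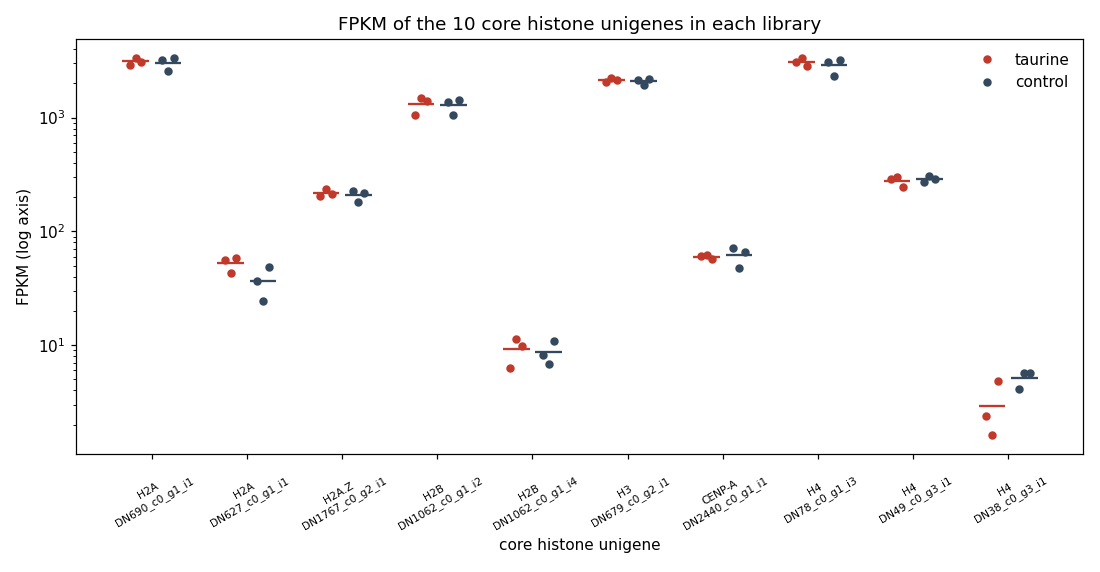
FPKM of the 10 core histone unigenes on a log axis, with 1 point for each library (taurine left, control right) and a line at the mean of each group (n = 3 each). The highest unigenes of H2A, H2B, H3 and H4 lie at 1054.5 FPKM or more in every library, and the taurine and control points overlap for every unigene.

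H2A, which pairs with H2B and carries a tail that is modified, had the most abundant of the 10 unigenes. DN690_c0_g1_i1 (815 bases) had 2905, 3345 and 3105 FPKM in taurine libraries, against 3224, 2548 and 3341 FPKM in control libraries. Control replicate 2 was the lowest library and taurine replicate 2 the highest, and the groups overlapped. Its log2 fold change was 0.05 (SE 0.17, 95% interval -0.35 to 0.45, limma adjusted p = 0.999), and it ranked 47 by mean FPKM among the tested unigenes.

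The other H2A unigene, DN627_c0_g1_i1 (920 bases), was far lower and had the largest positive difference of the 10. It had 56.2, 42.9 and 57.7 FPKM in taurine libraries, against 36.8, 24.3 and 49.0 FPKM in control libraries. Both highest values were from taurine libraries and the lowest was control replicate 2, but control replicate 3 was above taurine replicate 2. The log2 fold change was 0.54 (SE 0.26, 95% interval -0.08 to 1.17, limma adjusted p = 0.999), and it was 0.20 to 0.77 under the alternatives tried (0.28 without control replicate 2). Its best NR match is an unnamed protein of the barley powdery mildew fungus *Blumeria graminis*, while the other H2A unigene matches a histone H2A of *M. purpureus*. Set against DN690_c0_g1_i1 in the same library, it stood at 1.93%, 1.28% and 1.86% in taurine libraries, against 1.14%, 0.95% and 1.47% in control libraries, and the groups overlapped there too.

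H2A.Z, the variant found near gene starts, had 203, 234 and 214 FPKM for DN1767_c0_g2_i1 in taurine libraries, against 225, 181 and 217 FPKM in control libraries. Again control replicate 2 was lowest and taurine replicate 2 highest. The log2 fold change was 0.07 (SE 0.11, 95% interval -0.20 to 0.33, limma adjusted p = 0.999). As a share of the FPKM of H2A DN690_c0_g1_i1 in the same library, H2A.Z was steadier than its level: it was 7.0%, 6.99% and 6.89% in taurine libraries, against 6.99%, 7.10% and 6.49% in control libraries. Control replicate 2, lowest in level, had the highest of these shares.

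H2B, the partner of H2A, was carried almost entirely by DN1062_c0_g1_i2 (1444 bases), with 99.2% to 99.4% of the FPKM of both H2B unigenes. It had 1055, 1496 and 1399 FPKM in taurine libraries, against 1379, 1062 and 1427 FPKM in control libraries. Here taurine replicate 1 was as low as control replicate 2, so each group held 1 low library. The log2 fold change was 0.03 (SE 0.19, 95% interval -0.43 to 0.48, limma adjusted p = 0.999). The other H2B unigene, DN1062_c0_g1_i4, ranged over 6.32 to 11.4 FPKM in taurine libraries and 6.87 to 10.9 FPKM in control libraries, with a log2 fold change of 0.06 (SE 0.25). The 2 unigenes are isoforms of 1 assembled gene and share fragments, so the split between them is uncertain.

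H3, which carries many of the marks that distinguish active from silent chromatin, varied least among the highest unigenes. DN679_c0_g2_i1 (1200 bases) had 2062, 2214 and 2121 FPKM in taurine libraries, against 2121, 1924 and 2187 FPKM in control libraries. The groups overlapped, with control replicate 2 lowest. On the log2 scale the difference was 0.04 (SE 0.12, 95% interval -0.25 to 0.33, limma adjusted p = 0.999).

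CENP-A, the H3 variant of the centromere, is annotated by NR as cse4 of *M. purpureus*. DN2440_c0_g1_i1 had 60.7, 62.3 and 56.9 FPKM in taurine libraries, against 72.1, 47.8 and 65.9 FPKM in control libraries. The taurine values lay inside the range of the control values, whose spread was wider (SD 2.78 against 12.6 FPKM). Taurine minus control gave a log2 fold change of -0.03 (SE 0.16, 95% interval -0.40 to 0.35, limma adjusted p = 0.999), and without control replicate 2 it was -0.20. Against H3 in the same library CENP-A was 2.94%, 2.81% and 2.68% in taurine libraries, against 3.40%, 2.49% and 3.01% in control libraries.

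H4, the partner of H3, was represented by 3 unigenes with different assembled-gene names. They did not follow one course across the libraries. DN78_c0_g1_i3 (782 bases) held 91.4% to 91.8% of the FPKM of the 3 in taurine libraries and 88.1% to 91.7% in control libraries. It had 3063, 3354 and 2810 FPKM in taurine libraries, against 3069, 2332 and 3203 FPKM in control libraries. Control replicate 2 was lowest and the groups overlapped. The fitted log2 fold change was 0.11 (SE 0.18, 95% interval -0.32 to 0.54, limma adjusted p = 0.999), and without control replicate 2 it was -0.03.

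The H4 unigene DN49_c0_g3_i1 (990 bases), matched by NR to histone H4.2 of *Aspergillus terreus*, ran the other way in control replicate 2. It had 287, 298 and 246 FPKM in taurine libraries, against 273, 308 and 291 FPKM in control libraries. Control replicate 2 was the highest library and taurine replicate 3 the lowest. On the log2 scale the difference was -0.07 (SE 0.10, 95% interval -0.32 to 0.17, limma adjusted p = 0.999). Against DN78_c0_g1_i3 in the same library it was 9.35%, 8.89% and 8.77% in taurine libraries, against 8.89%, 13.2% and 9.09% in control libraries. The share was near 9% in every library except control replicate 2.

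The third H4 unigene, DN38_c0_g3_i1 (840 bases), was the lowest of the 10 and had the largest negative difference. It had 2.38, 1.61 and 4.82 FPKM in taurine libraries, against 4.08, 5.67 and 5.63 FPKM in control libraries. The values of taurine replicates 1 and 2 were below all control values, and taurine replicate 3 was inside their range. Taurine minus control gave a log2 fold change of -0.71 (SE 0.32, 95% interval -1.49 to 0.07, limma adjusted p = 0.999), and it was -1.03 to -0.45 under the alternatives tried. About 16.6 to 57.6 estimated fragments lie behind each of these values. NR and NT give DN38_c0_g3_i1 the same best matches as DN78_c0_g1_i3, so fragments of the 2 could be shared between them.

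**Figure D2:**
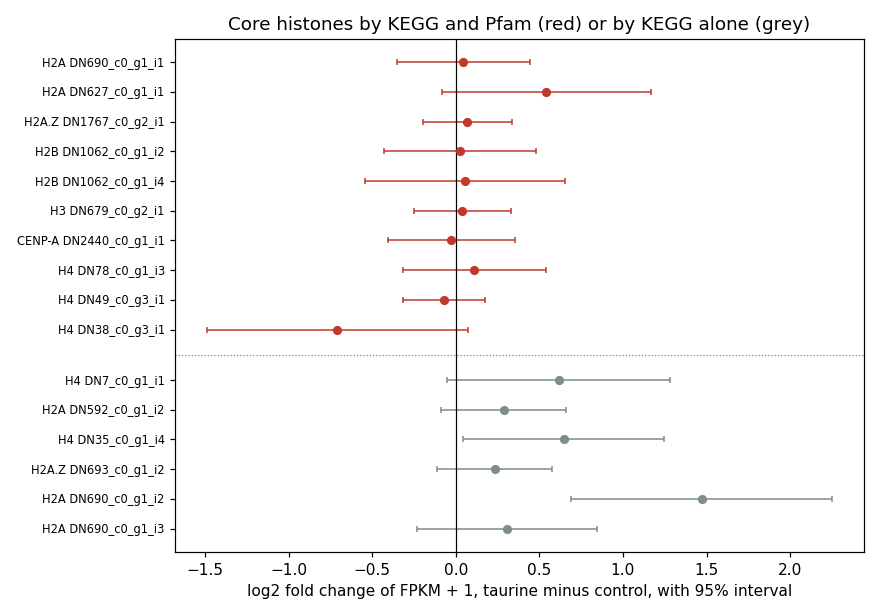
Log2 fold change of FPKM + 1, taurine minus control, with its 95% interval from limma, for the 10 core histone unigenes (red) and 6 unigenes named core histones by KEGG alone (grey). All 10 red intervals span 0, and those of DN627_c0_g1_i1 (H2A) and DN38_c0_g3_i1 (H4) reach farthest from it.

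For 7 of the 10 unigenes the whole interval lay between -0.6 and 0.6, and 8 of the 10 had a log2 fold change smaller than 0.12 in size. The exact two-sided permutation test of the 6 libraries gave p of 0.2 to 1 for the single unigenes, where 3 against 3 libraries cannot go below 0.1. A pseudocount of 1 understates the change of low unigenes such as DN38_c0_g3_i1. The names of the columns decide which libraries are taurine, so every direction holds as far as those names do.

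The spread between libraries of 1 group was wider than the difference between groups for most of the 10. Control replicate 2 was the lowest of the 6 libraries in 6 of the 10 unigenes and the highest in 2, where it was the lowest for 22.9% and the highest for 28.3% of all tested unigenes. Among the 1174 tested unigenes with a mean of at least 100 FPKM it was the lowest for 68.3%, and among the 6 core histone unigenes at that level it was the lowest for 4. Taurine replicate 2 was the highest library in 6 of the 10. The share of all tested unigenes with that library highest was not computed, so this count is a description only.

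**Figure D3:**
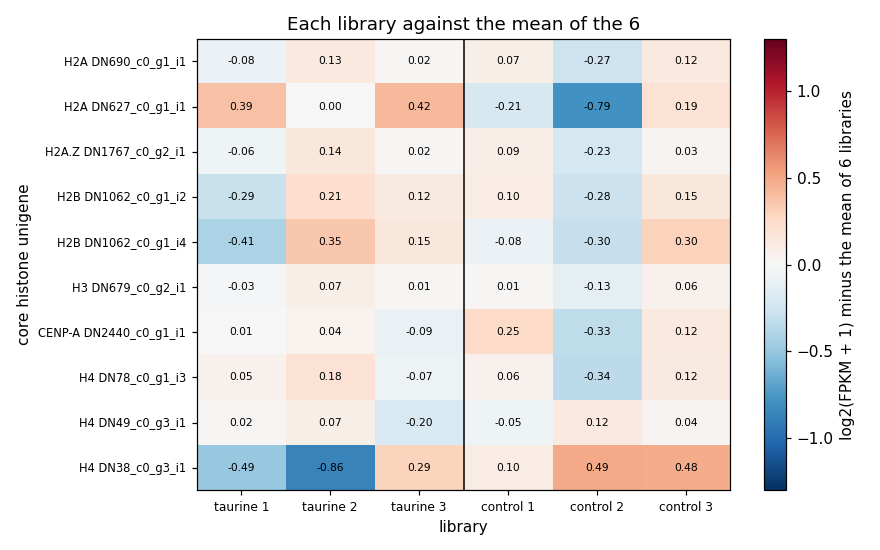
Log2(FPKM + 1) of each core histone unigene in each library minus its mean over the 6 libraries, taurine libraries left and control libraries right. The column of control replicate 2 is below 0 in 8 of the 10 rows and above 0 in the H4 unigenes DN49_c0_g3_i1 and DN38_c0_g3_i1.

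Sums for each histone type gave the same picture with less dependence on how copies were split. Canonical H2A summed to 3170 ± 214 FPKM in taurine libraries and 3074 ± 440 FPKM in control libraries (SD, n = 3 each). H2B summed to 1326 ± 235 FPKM in taurine libraries and 1298 ± 200 FPKM in control libraries, and H3 to 2133 ± 76.4 FPKM in taurine libraries and 2077 ± 137 FPKM in control libraries. H4 summed to 3356 ± 296 FPKM in taurine libraries and 3164 ± 455 FPKM in control libraries. In each of these 4 types the mean log2 was higher with taurine, by 0.03 to 0.09, and the groups overlapped. Without control replicate 2 all 4 differences were below 0, at -0.07 for H2A, -0.11 for H2B, -0.01 for H3 and -0.03 for H4.

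The FPKM of H2A DN690_c0_g1_i1 over that of H2B DN1062_c0_g1_i2 was 2.75, 2.24 and 2.22 in taurine libraries, against 2.34, 2.40 and 2.34 in control libraries. Taurine replicate 1, where H2B was low, stood apart. The FPKM of H4 DN78_c0_g1_i3 over that of H3 DN679_c0_g2_i1 was 1.49, 1.52 and 1.32 in taurine libraries, against 1.45, 1.21 and 1.46 in control libraries. Both ratios overlapped between the groups. The exact two-sided permutation test gave p = 1 for H2A over H2B and p = 0.5 for H4 over H3, and 1 and 0.96 after Benjamini-Hochberg adjustment over the 16 ratios and shares computed. Among those 16 the smallest p was 0.1, the smallest that 3 against 3 libraries can give, and its adjusted value was 0.8.

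Another 7 unigenes are named core histones by KEGG but hold no histone in their Pfam description, so they are not among the 10. FPKM was listed for 6 of them. They are mostly low, and none passed an adjusted p of 0.05 in limma. All 6 had log2 fold changes above 0, against 54.2% of all tested unigenes. They ranged over 0.23 to 1.47 with a median of 0.46. In limma 2 of them (DN690_c0_g1_i2 and DN35_c0_g1_i4) had an unadjusted p under 0.05, against 1.63% of all tested unigenes higher with taurine. The 6 come from 5 assembled genes, since DN690_c0_g1_i2 and DN690_c0_g1_i3 are isoforms of 1 gene. Control replicate 2 was the lowest library in 5 of the 6, against 22.9% of all tested unigenes. Without it all 6 stayed above 0, and the median was 0.30. In 2 of them the taurine values were all above the control values, against 3.78% of all tested unigenes.

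The largest of these differences was in an isoform of the main H2A gene, described here after its values were seen. DN690_c0_g1_i2 had 16.4, 12.9 and 14.1 FPKM in taurine libraries, against 6.28, 2.31 and 6.16 FPKM in control libraries, and the groups did not overlap. The fitted log2 fold change was 1.47 (SE 0.32, 95% interval 0.69 to 2.25, limma adjusted p = 0.999), and without control replicate 2 it was 1.09. The isoform was 0.559%, 0.382% and 0.448% of the FPKM of its assembled gene in taurine libraries, against 0.193%, 0.0900% and 0.183% in control libraries. Its isoform DN690_c0_g1_i1 held at least 98.7% in every library, and with the 3 isoforms summed the log2 fold change was 0.05. How fragments are divided among isoforms of 1 gene is uncertain.

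The other unigene without overlap was DN693_c0_g1_i2, named H2A.Z of *M. purpureus* by NR and a predicted membrane protein by Pfam. It had 5.53, 5.74 and 6.74 FPKM in taurine libraries, against 4.55, 5.38 and 4.94 FPKM in control libraries. The distance between the groups was small, and its log2 fold change was 0.23 (SE 0.14, limma adjusted p = 0.999). The H4 unigene DN35_c0_g1_i4 had 130, 91.0 and 101 FPKM in taurine libraries, against 69.8, 48.3 and 91.4 FPKM in control libraries. Its groups overlapped by a small margin, with a log2 fold change of 0.65 (SE 0.25, limma adjusted p = 0.999). Sample quality weights gave 0.32, and leaving out control replicate 2 gave 0.41.

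**Figure D4:**
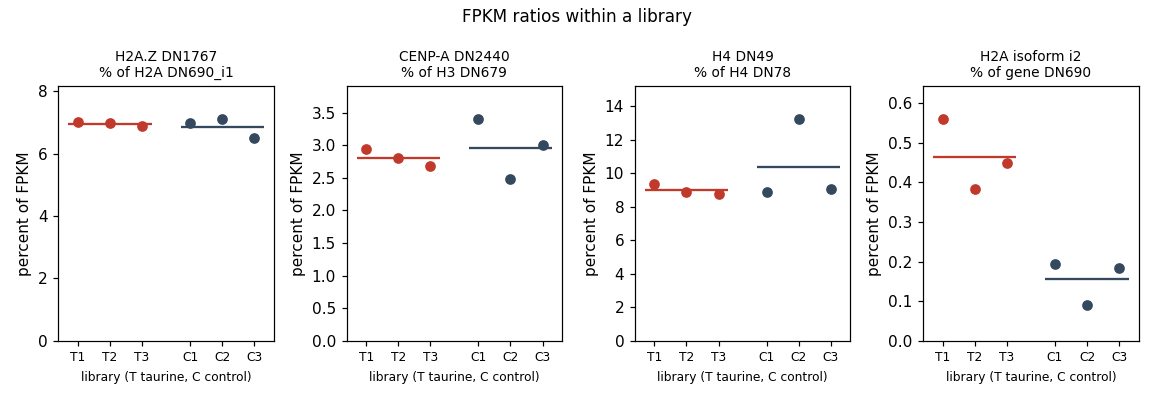
FPKM of 1 unigene as a percent of another in the same library, with 1 point for each library (taurine left, control right) and a line at each group's mean (n = 3 each). H2A.Z lies between 6.49% and 7.10% of H2A in all libraries, H4 DN49_c0_g3_i1 reaches 13.2% of H4 DN78_c0_g1_i3 in control replicate 2, and the H2A isoform i2 lies higher in every taurine library than in any control library.

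Genes that work with core histones were read from the same fit. Of 4 unigenes of the linker histone H1, which binds DNA between nucleosomes, 0 passed an adjusted p of 0.05 or an unadjusted p of 0.05 in limma, with 2 above 0, 2 below 0 and a median log2 fold change of 0.02. Without control replicate 2 none of the 4 was above 0, and the median was -0.10. The most abundant, DN225_c0_g1_i5, had 114, 109 and 117 FPKM in taurine libraries, against 117, 98.2 and 117 FPKM in control libraries. Its log2 fold change was 0.04 (SE 0.09).

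Of 10 unigenes of histone chaperones and assembly factors, which escort histones and lay them onto DNA, 9 were above 0 and 1 below, 0 passed an adjusted or an unadjusted p of 0.05, and the median was 0.12, against 54.2% above 0 and a median of 0.02 over all tested unigenes. Control replicate 2 was the lowest library in 6 of these 10, and without it 7 were above 0, with a median of 0.03. The most abundant, DN2457_c0_g1_i1, a nucleosome assembly protein 1-like chaperone of H2A and H2B, had 665, 672 and 651 FPKM in taurine libraries, against 626, 634 and 679 FPKM in control libraries. Its log2 fold change was 0.04 (SE 0.08), and control replicate 2 was not its lowest library.

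Among 92 unigenes of DNA replication, with which canonical histone synthesis is coupled, 0 passed an adjusted p of 0.05 in limma. Of these 69 were above 0 and 23 below, with a median of 0.07, against a median of 0.02 and 54.2% above 0 over all tested unigenes. Control replicate 2 was the lowest library for 45 of the 92, and without it 45 were above 0, with a median of -0.0038. An unadjusted p under 0.05 was found for 1 unigene in each direction, against 1.63% higher and 1.03% lower over all tested unigenes. Both are isoforms of 1 assembled gene of the large subunit of ribonucleotide reductase, DN356_c0_g1, with log2 fold changes of -1.32 for i10 and 1.41 for i8, so the split of fragments between them is uncertain. The most abundant, DN2095_c0_g1_i1, the small subunit of ribonucleotide reductase, which makes deoxyribonucleotides, had 236, 259 and 245 FPKM in taurine libraries, against 238, 250 and 250 FPKM in control libraries. Its lowest library was taurine replicate 1.

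Enzymes that modify histones were counted only. By their KEGG words, 49 unigenes named histone acetyltransferases, deacetylases, methyltransferases or demethylases were tested. None passed an adjusted p of 0.05 in limma. Of the 49, 30 were above 0 and 19 below, against 54.2% above 0 over all tested unigenes. The median was 0.01, beside 0.02 over all tested unigenes. The range was -0.69 to 3.41, beside -4.25 to 3.70 over all tested unigenes. The taurine values were all above the control values in 2 of the 49, against 3.78% of all tested unigenes. They were all below in 0, against 2.62%. In limma 2 had an unadjusted p under 0.05 (both higher with taurine), against 1.63% higher over all tested unigenes. Without control replicate 2, 28 were above 0, with a median of 0.01, against 55.9% above 0 over the 20062 unigenes in that fit.

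The course of the summed core histones over the 6 libraries was matched by unigenes of varied annotation. The 5 with the highest Pearson r, of 11780 candidates of at least 500 bases and a mean of at least 1 FPKM, had r of 0.988 to 0.995. They were DN8522_c0_g1_i1 and DN10975_c0_g1_i1, both hypothetical proteins in NR, DN1077_c0_g1_i3, a 14-3-3 protein, DN760_c0_g1_i1, a methionine sulfoxide reductase, and DN369_c0_g1_i3, a subunit of the TRAPP trafficking complex. All 5 were lowest in control replicate 2, and 132 candidates had r above 0.95. With 6 libraries this is a description, and these 5 share the low value of control replicate 2 with the summed core histones.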

How the data were processed

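RNA of *M. purpureus* MP2022 (3 taurine and 3 control libraries) had been assembled de novo by the authors, and 1 table of 24261 unigenes was deposited with FPKM per library. The submitters' processing notes name Bowtie2 2.2.5, RSEM 1.2.8 and DESeq, without their order. The deposited FPKM entered without change. The authors' own comparison of the groups (fold changes, p and q values) and their group averages were not used. All per-sample columns were mapped to a sample (0 unmapped). No sequence was used here, and 0 of the core histone unigenes matched the RefSeq gene table by identifier.

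Values were analysed as log2(FPKM + 1), with 1 as the pseudocount. The 20381 unigenes with a mean of at least 0.1 were tested with limma 3.58.1 in R 4.3.3 (lmFit, eBayes with a trend). Tests were two-sided, and p-values were adjusted by Benjamini-Hochberg over the whole table. Libraries were not rescaled and no block was used. Python 3.11.15, pandas 2.3.3, numpy 2.4.6, scipy 1.17.1 and matplotlib were used for the rest. The procedure was tested on simulated data. Fragments were estimated from the steps between low values. The rule was chosen with the data in view and left 50.8% to 56.5% of those values within 0.1 of a whole number, so they are rough.

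Every core histone unigene was accounted for. The most abundant of each type and variant, those past an adjusted or unadjusted p of 0.05, those with the largest differences and those without overlap were given in full. Members and lists were chosen with earlier results of these data known. Alternatives were other pseudocounts, filters, scalings and weights, isoforms summed to genes, a replicate block, limma voom (unigenes of at least 400 bases) and leaving out each library.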

Additional observations from a re-analysis of the deposited data

How the results depend on the processing

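The count of core histone unigenes called by limma was 0 under every alternative tried, which were the 10 other settings and the 6 fits without 1 library. The summed FPKM kept its direction (main difference 0.06) with 0.04 to 0.05 under TPM and quantile scaling and 0.07 with the 6 KEGG-only unigenes added, a choice made after seeing the data. Leaving out 1 library gave -0.05 to 0.13, below 0 only without control replicate 2. The median over the 10 (0.04) was -0.09 with sample quality weights and -0.05 to 0.10 with 1 library left out, below 0 without control replicate 2 or taurine replicate 2, all within the spread between replicates (SD 0.16). The cause was not tested. Counts of the related lists without control replicate 2 were likewise added after seeing the data.

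All unigenes called numbered 8, against 0 with a pseudocount of 0.01, 0 with limma voom, 15 with sample quality weights and 3 to 16 with 1 library left out (16 without control replicate 2, 3 without taurine replicate 1). Replicate numbers did not pair the libraries (same-number correlations -0.022, -0.037 and -0.0054), and with the replicate block 0 unigenes were called and the core histone median stayed 0.04.

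Several unigenes changed sign without being called. With sample quality weights the log2 fold change was -0.030 for DN679_c0_g2_i1, -0.091 for DN690_c0_g1_i1, -0.052 for DN78_c0_g1_i3, -0.13 for DN1062_c0_g1_i2, -0.23 for DN1062_c0_g1_i4, -0.0088 for DN1767_c0_g2_i1 and -0.032 for DN690_c0_g1_i3. With quantile scaling it was -0.0075 for DN690_c0_g1_i1 and -0.015 for DN1062_c0_g1_i2. Most of these unigenes, and some others, also changed sign in at least 1 fit with 1 library left out. The range over all such fits follows for each. It was -0.11 to 0.18 for DN1062_c0_g1_i2, -0.10 to 0.27 for DN1062_c0_g1_i4, -0.029 to 0.13 for DN1767_c0_g2_i1 and -0.20 to 0.092 for DN2440_c0_g1_i1. It was -0.13 to 0.0094 for DN49_c0_g3_i1, -0.015 to 0.078 for DN679_c0_g2_i1, -0.076 to 0.12 for DN690_c0_g1_i1 and -0.031 to 0.20 for DN78_c0_g1_i3. DN627_c0_g1_i1 and DN38_c0_g3_i1 kept their sign in all alternatives, and so did the KEGG-only unigenes other than DN690_c0_g1_i3. For DN690_c0_g1_i2 the value with isoforms summed is that of the whole gene. Depth limits the lowest unigene, DN38_c0_g3_i1, to 16.6 to 57.6 estimated fragments a library.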
